A study of Mus musculus with 21 samples.

Results

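The 10 genes described here encode enzymes of glycolysis and of the step from pyruvate to lactate. They were chosen by name, as Hk1, Hk2, Gpi1, Pfkl, Pfkp, Aldoa, Pgk1, Eno1, Pkm and Ldha. Every probe set that the array annotation gave to one of these genes alone was taken, which made 16 probe sets of 8 genes, out of 22626 probe sets and 12393 named genes in the series. Aldoa had 4 of them, Pgk1 had 3, Hk1, Pfkl and Pfkp had 2 each, and Hk2, Pkm and Ldha had 1 each. All 16 passed the filter that left out the dimmest 33.3% of probe sets by mean over all arrays. Gpi1 and Eno1 were not analysed here, and neither was 1 probe set that the annotation shared between Hk1 and ribosomal protein genes.

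Lungs (the whole right one) of mice from 3 inbred strains were profiled on 21 Affymetrix arrays, each holding a pool of several mice of 1 sex. An implanted osmotic minipump delivered bleomycin, a DNA-cleaving anticancer agent whose main toxicity is to the lung, to the treated mice. C57BL/6 mice were sampled when moribund, with no time given (2 arrays), at 3 weeks (2 arrays) and at 6 weeks (1 female array), C3H/HeJ mice at 3 and 6 weeks (2 arrays each), and A/J mice at 3 weeks (4 arrays) and 6 weeks (2 arrays). Each strain had 2 control arrays, and the labels do not state what these mice received. Male pools had received 100 mg/kg and female pools 125 mg/kg, so the replicates of a treated group differed in sex and dose together. In A/J at 3 weeks there were a second male pool, at 80 mg/kg, and a second female pool, at 100 mg/kg. The labels give no ages. They name no mutation or transgene in any group.

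Glycolysis splits glucose into pyruvate in the cytosol, and yields ATP without oxygen. Hexokinases trap glucose in the cell, phosphofructokinase commits it to the pathway, aldolase splits the sugar, and phosphoglycerate kinase and pyruvate kinase make ATP. Lactate dehydrogenase A turns pyruvate into lactate and so restores the cofactor that the pathway consumes. Activated macrophages, neutrophils and dividing cells are known for high glycolytic flux, and several of these genes are textbook targets of hypoxia-inducible factor, which binds a short element with the core ACGTG or GCGTG.

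Promoters are shown for Ldha and Pkm, on which the results turn, and for Hk2 and Pgk1, whose windows also hold the core ACGTG. Each sequence is the 250 bases before a transcript start of RefSeq on build GRCm38.p6, read 5′ to 3′ on the gene's strand, with ACGTG or its reverse complement CACGT in capitals. The Ldha window (the first of 2 for that gene) lies at chr7:46845554-46845803 on the plus strand, the Pkm window (the second of 2 for that gene) at chr9:59656977-59657226 on the plus strand, the Hk2 window at chr6:82774455-82774704 on the minus strand, and the Pgk1 window at chrX:106186850-106187099 on the plus strand.
Ldha: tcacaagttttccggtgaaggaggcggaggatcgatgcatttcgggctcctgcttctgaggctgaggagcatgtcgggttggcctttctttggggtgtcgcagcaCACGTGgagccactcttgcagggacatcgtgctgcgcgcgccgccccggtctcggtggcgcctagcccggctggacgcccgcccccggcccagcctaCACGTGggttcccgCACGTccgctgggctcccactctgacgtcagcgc
Pkm: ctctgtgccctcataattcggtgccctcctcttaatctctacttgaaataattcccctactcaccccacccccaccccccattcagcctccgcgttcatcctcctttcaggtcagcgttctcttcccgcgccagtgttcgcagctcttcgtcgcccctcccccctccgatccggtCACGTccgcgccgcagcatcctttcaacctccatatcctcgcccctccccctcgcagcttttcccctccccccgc
Hk2: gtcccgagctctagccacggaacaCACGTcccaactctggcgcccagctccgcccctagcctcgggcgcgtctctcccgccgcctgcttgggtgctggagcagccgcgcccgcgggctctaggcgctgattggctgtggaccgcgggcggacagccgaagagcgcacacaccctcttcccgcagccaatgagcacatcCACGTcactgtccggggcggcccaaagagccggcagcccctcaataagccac
Pgk1: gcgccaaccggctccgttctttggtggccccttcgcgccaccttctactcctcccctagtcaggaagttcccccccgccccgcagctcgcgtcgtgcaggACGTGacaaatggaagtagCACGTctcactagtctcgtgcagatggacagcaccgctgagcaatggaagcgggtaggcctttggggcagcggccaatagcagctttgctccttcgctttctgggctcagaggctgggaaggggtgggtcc

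The Ldha window held 5 matches to ACGTG on either strand, because CACGTG, which reads the same on both strands and so counts as 2 overlapping matches, occurred 2 times, beside a further CACGT. These matches began 145, 144, 48, 47 and 34 bases before the start. The Hk2 window held 2 matches (226 and 52 bases before the start), the Pgk1 window 2 (150 and 131 bases before it) and the Pkm window 1 (75 bases before it). All 10 named genes had a window in the table, 17 in all, and ACGTG occurred in 6 of these 17 windows, of the 5 genes Ldha, Pkm, Hk2, Pgk1 and Aldoa. The Aldoa windows with ACGTG overlap and hold the same match. The other Ldha window and the other Pkm window held no ACGTG. Of all 32851 promoter windows of the same length, 16.6% held ACGTG, 28.2% held GCGTG, 38.6% held at least one of them and 6.02% held CACGTG. No window of Hk1, Pfkl, Pfkp, Eno1 or Gpi1 held ACGTG. The other core, GCGTG, occurred in 1 of the 2 Hk1 windows, in the Ldha window not shown and in every window of Pfkl, Pfkp and Eno1. The Gpi1 window held neither. A match describes letters in the window and is not evidence of a bound factor.

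The arrays differed in brightness, with medians from 58.55 to 111.3 as deposited, and were therefore quantile normalized, so values below are normalized intensity on a linear scale and changes are on the scale of log2(intensity + 16). The lung markers Sftpc, Sftpb, Scgb1a1 and Ager stood at or above the 98.9th percentile of all probe sets on every array. The ratio of 3′ to 5′ Gapdh control signal, a gauge of RNA integrity that climbs as RNA decays, lay between 0.77 and 2.08, with the highest value on the C3H/HeJ female array at 6 weeks and the next at 1.34. Xist, transcribed from the inactive X chromosome, reached at most 8.73 (log2) on male arrays against at least 9.29 on female arrays, and the 2 highest male arrays were C3H/HeJ at 3 weeks and the A/J pool at 80 mg/kg. A call below is an adjusted p under 0.05 in limma, adjusted by Benjamini and Hochberg over all 15084 probe sets tested in a comparison. The small number of arrays, 2 in most groups, limits the precision. In whole lung, more RNA of a gene per cell and more cells that express it cannot be told apart.

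Ldha, Pkm and Hk1 were the members that rose, and they did so in C57BL/6 lungs and in the mean of the 3 strains, while none of the 16 probe sets fell in these comparisons with the values quantile normalized. In moribund C57BL/6 mice 3 of 16 probe sets rose against the strain's controls, by 1.84-fold for Ldha, 1.77-fold for Pkm and 1.40-fold for Hk1. At 3 weeks in C57BL/6 2 of 16 rose, Ldha by 1.66-fold and Pkm by 1.61-fold. In the mean of the 3 strains at 3 weeks 3 of 16 rose, Ldha by 1.5-fold, Pkm by 1.24-fold and Hk1 by 1.18-fold. Over all probe sets tested, the share called in either direction was 12.8% in moribund C57BL/6 mice (5.86% higher), 10.7% in C57BL/6 at 3 weeks (5.66% higher) and 13.7% in the mean of the strains (6.48% higher). The C57BL/6 comparisons share their control arrays, and the mean of the strains contains the C57BL/6 change. With the values as deposited, where the median of all probe sets was −0.18 at 3 weeks and −0.28 in moribund mice, no member passed in C57BL/6, and Pkm stood at 0.59 and 0.54 and Ldha at 0.65 and 0.62 (adjusted p from 0.165 to 0.302).

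In A/J and C3H/HeJ taken alone no member passed at 3 weeks, where 0.842% and 1.7% of all probe sets did, and none passed at 6 weeks, where 0.0994% and 0.0663% did. By limma without adjustment, 3 of 16 had p under 0.05 in A/J at 3 weeks (10.1% of all probe sets), 2 in C3H/HeJ at 3 weeks (14.9%), 1 in A/J at 6 weeks (4.7%) and 0 in C3H/HeJ at 6 weeks (4.46%). Among the 10 groups as a whole, the F test called Pkm (adjusted p = 0.00488), Ldha (adjusted p = 0.00692) and the Pgk1 probe set 1417864_at (adjusted p = 0.0311), that is 3 of 16 against 22.2% of all probe sets. With 16 probe sets of 8 genes, 2 or 3 calls are described below as changes of single enzymes and not of the list.

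**Figure D1:**
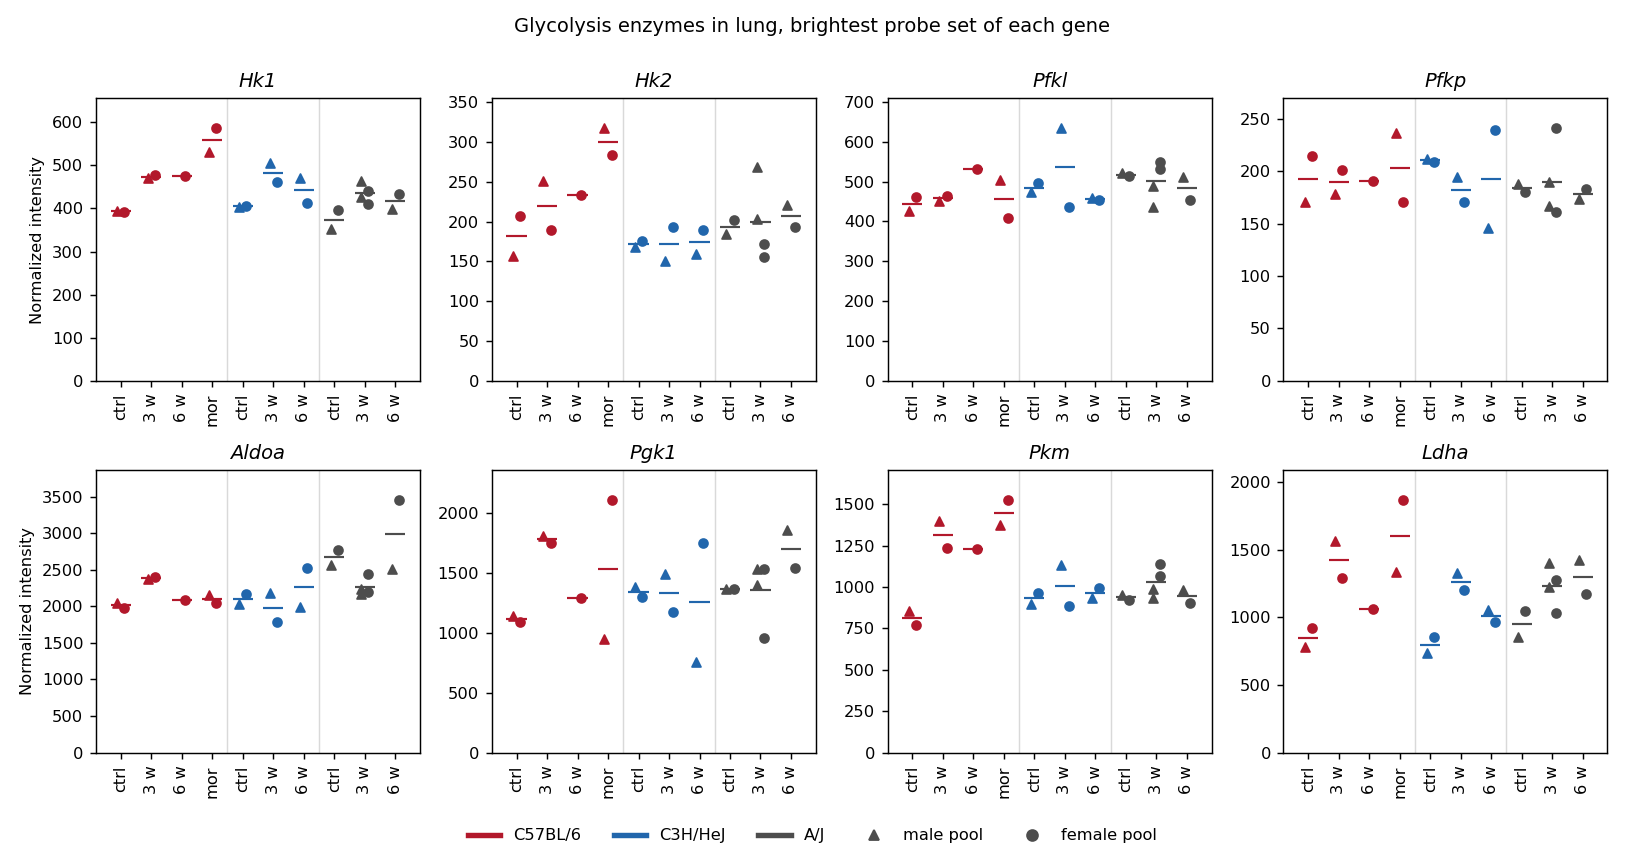
Normalized intensity (linear, each panel from 0) of the brightest probe set of each of the 8 genes in the 10 strain by stage groups, with 1 point per array (triangles male pools, circles female pools) and a bar at the group mean. The 5 treated C57BL/6 arrays are the highest for Pkm, between 1231.6 and 1524.1, and the 3 control groups have the lowest means for Ldha.

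Hexokinases phosphorylate glucose on its entry into the cell. Hk1, the form found in most tissues (chr10:62268855-62379920, GRCm38.p6 as for all positions given), measured 530.2 and 585.2 in moribund C57BL/6 mice with its brighter probe set, 1437974_a_at, against 395.0 and 391.0 in controls (male, then female array, as throughout). Both moribund arrays lay above every other array of the series. The change was 0.49 (log2, SE 0.13, adjusted p = 0.0191). At 3 weeks the same probe set measured 469.3 and 478.0 in C57BL/6 against those controls, 504.3 and 460.6 in C3H/HeJ mice against 404.0 and 406.1 in their controls, and 410.7 to 462.4 on the 4 A/J arrays against 352.1 and 396.2 in A/J controls. In each strain the treated and control arrays did not overlap. The changes were 0.26 in C57BL/6, 0.24 in C3H/HeJ and 0.21 in A/J, of which none passed alone (adjusted p = 0.227, 0.395 and 0.557). Their mean was 0.24 (SE 0.07, adjusted p = 0.0348). This call in the mean was lost in 14 of 33 alternative settings, among them leaving out the male A/J control array (0.21, adjusted p = 0.122), and with the values as deposited the change was −0.06 where the median of all probe sets was −0.27. The moribund call was lost without the female moribund array (0.41, adjusted p = 0.143) or without either control array (0.49 and adjusted p = 0.0944 without the male one, 0.48 and 0.12 without the female one). It was also lost with each array scaled to 1 median (0.44, adjusted p = 0.0653) and with the values as deposited (0.17, adjusted p = 0.795).

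The dimmer Hk1 probe set, 1420901_a_at, passed in no comparison and spread more widely, with 208.7 and 183.8 in moribund C57BL/6 mice against 150.7 and 124.7 in controls, a change of 0.47 (SE 0.28, adjusted p = 0.297). Its lowest value, 65.3, came from the C3H/HeJ female array at 6 weeks, which also had the highest Gapdh ratio. Over the 10 group means the 2 Hk1 probe sets correlated at r = 0.676.

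Hk2, the inducible form of muscle, tumours and activated immune cells (chr6:82725025-82774454), measured 316.9 and 283.0 in moribund C57BL/6 mice against 156.8 and 207.5 in controls. The moribund arrays were the highest of all 21. The change of 0.68 (1.61-fold, SE 0.22) missed the threshold at an adjusted p of 0.0517, and passed under several other settings, the lowest adjusted p being 0.0245 without both males of highest Xist. With each array scaled to 1 median the moribund change was 0.61 (adjusted p = 0.0754), and with the values as deposited 0.35 (adjusted p = 0.604). At 3 weeks Hk2 measured 250.4 and 189.9 in C57BL/6 against those controls, and the groups overlapped (0.25, SE 0.22, adjusted p = 0.538). Its change at 3 weeks was −0.01 in C3H/HeJ (95% confidence interval −0.47 to 0.46) and 0.02 in A/J (−0.38 to 0.43). In A/J the 4 arrays ran from 156.1 at 125 mg/kg in females to 268.0 at 80 mg/kg in males, and so straddled the controls at 183.9 and 201.5.

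Phosphofructokinase makes the committed step, with Pfkl the liver type (chr10:77986947-78009807) and Pfkp the platelet type (chr13:6579874-6649060). No probe set of either gene passed. The brighter Pfkl probe set, 1439148_a_at, measured 504.2 and 408.3 in moribund C57BL/6 mice against 426.1 and 460.5 in controls, so the groups overlapped, and its change was 0.03 (95% confidence interval −0.32 to 0.38). The other, 1450269_a_at, measured 426.5 and 404.3 against 310.7 and 319.9, with no overlap, and changed by 0.38 (SE 0.15, adjusted p = 0.103). That probe set also stood at 0.19 in C57BL/6 and at 0.20 in both other strains at 3 weeks, with a mean of 0.20 (SE 0.08, adjusted p = 0.124). The 2 Pfkl probe sets correlated at r = 0.473 over the 10 group means, so which of them is read decides what is seen of the gene.

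Pfkp measured 236.5 and 170.2 in moribund C57BL/6 mice against 171.0 and 214.3 in controls with its brighter probe set, 1416069_at, an overlap with a change of 0.06 (95% confidence interval −0.40 to 0.53). Over all 10 groups its F test had an adjusted p of 0.996. The dimmer Pfkp probe set, 1430634_a_at, ran from 23.9 to 104.7 over the 21 arrays, close to the offset of 16, and had the widest errors of the 16 (SE 0.35 in the moribund comparison).

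Aldoa, the aldolase of muscle and most other tissues (chr7:126795234-126800994), had 4 probe sets, all of the kind whose probes can also bind related transcripts. Aldoa has processed pseudogenes, so their signal may not be of Aldoa alone. None of the 4 passed in any comparison. In A/J at 3 weeks the brightest, 1416921_x_at, measured 2171.5 to 2448.6 on 4 arrays against 2560.9 and 2775.4 in A/J controls, with no overlap (−0.24, SE 0.12, adjusted p = 0.532). The probe sets 1433604_x_at and 1434799_x_at also lay below both A/J controls on all 4 arrays, at −0.29 (adjusted p = 0.464) and −0.20 (adjusted p = 0.567), while 1439375_x_at stood at 0.00 (adjusted p = 0.998). In moribund C57BL/6 mice the 4 probe sets stood between 0.03 and 0.25. Between control lungs 1416921_x_at measured 2051.5 and 1979.2 in C57BL/6 and 2560.9 and 2775.4 in A/J. The difference, C57BL/6 minus A/J, was −0.40 (adjusted p = 0.14), and it passed with array weights (adjusted p = 0.0344). Over the 10 group means the 4 probe sets correlated pairwise at r from 0.194 to 0.768.

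Pgk1, which makes the first ATP of the pathway and is X-linked (chrX:106187100-106203699), had its clearest values with probe set 1417864_at. This measured 1172.4 and 1453.1 in moribund C57BL/6 mice against 1086.0 and 861.0 in controls, with no overlap, and the change of 0.43 (SE 0.14) missed the threshold at an adjusted p of 0.0557. The change was 0.61 without the male moribund array and 0.59 without the male control array, each of which leaves 1 array in a group. It passed with the dimmest 50 percent left out (adjusted p = 0.0487). With each array scaled to 1 median it was 0.42 (adjusted p = 0.155), and with the values as deposited 0.14 (adjusted p = 0.818). At 3 weeks this probe set measured 1230.7 and 1157.3 in C57BL/6 against those controls (0.30, adjusted p = 0.201). In C3H/HeJ it measured 1065.7 and 1025.5 against 765.3 and 919.9 (0.31, adjusted p = 0.308). In A/J it ran from 866.7 to 988.6 against 969.7 and 884.7 (−0.01, adjusted p = 0.983). The treated and control arrays were apart in C57BL/6 and C3H/HeJ and overlapped in A/J.

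The brightest Pgk1 probe set, 1438640_x_at, can bind related transcripts, Pgk1 having pseudogenes as well, and its arrays of 1 group lay far apart. It measured 949.6 and 2104.6 in moribund C57BL/6 mice against 1135.3 and 1089.7 in controls, and 755.7 and 1747.6 in C3H/HeJ at 6 weeks against 1383.6 and 1294.2 in their controls. In both treated groups the male array lay below and the female array above the controls. At 3 weeks in C57BL/6 it measured 1807.0 and 1749.4, above both controls (0.67, SE 0.34, adjusted p = 0.237). The dimmest Pgk1 probe set, 1439435_x_at, had a mean change of 0.40 at 3 weeks (SE 0.15, adjusted p = 0.102), and passed without the male or the female moribund array (adjusted p = 0.0261 and 0.0267) and with array weights (adjusted p = 0.0457). The moribund arrays do not belong to the groups of that mean. In moribund C57BL/6 mice this probe set ran from 93.0 to 207.9, and in controls from 72.3 to 109.1, so the groups overlapped. The change was 0.57 (adjusted p = 0.201), and 1.16 without the male moribund array, which leaves 1 array in that group. Like the brightest, this probe set can bind related transcripts. Between sexes, female minus male, the 3 probe sets differed by −0.03 (SE 0.06), 0.10 (SE 0.15) and −0.01 (SE 0.12), and none passed.

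Pkm (chr9:59656576-59679372) encodes the muscle-type pyruvate kinase, including the M2 form of proliferating cells and macrophages, and the probe set 1417308_at measures the gene without telling the forms apart here. It measured 1371.3 and 1524.1 in moribund C57BL/6 mice, against 851.9 and 768.9 in controls. At 3 weeks it measured 1398.6 and 1233.5, and the single female array at 6 weeks stood at 1231.6, which is 0.60 above the controls on the log2 scale and has no test. All 5 treated C57BL/6 arrays exceeded every other array of the series. The change was 0.82 in moribund mice (SE 0.14, adjusted p = 0.000793) and 0.69 at 3 weeks (SE 0.14, adjusted p = 0.00348). The call at 3 weeks was lost without the male array at 3 weeks (0.59, adjusted p = 0.0738) or without the female control array (0.61, adjusted p = 0.0535).

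In the other strains Pkm stood close to its controls. C3H/HeJ arrays at 3 weeks measured 1130.8 and 882.4, against 898.3 and 966.4 in controls, and the A/J arrays ran from 936.1 to 1135.9, against 950.0 and 923.5. The groups overlapped in both strains. The change was 0.10 in C3H/HeJ (95% confidence interval −0.19 to 0.39) and 0.13 in A/J (−0.12 to 0.38). The change in C57BL/6 exceeded that in C3H/HeJ by 0.59 (SE 0.19, adjusted p = 0.183 in limma) and that in A/J by 0.55 (SE 0.18, adjusted p = 0.166). These differences between strains did not pass, in comparisons where 0.152% and 1.07% of all probe sets did. The mean of the strains, 0.31 (SE 0.08, adjusted p = 0.0121), passed, but not without the male C57BL/6 array at 3 weeks (0.28, adjusted p = 0.0533), without both males of highest Xist (0.25, adjusted p = 0.0545), with each array scaled to 1 median (0.26, adjusted p = 0.132) or with the values as deposited (0.00, adjusted p = 0.985, where the median of all probe sets was −0.27).

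By group, Pkm averaged 1447.7 ± 108.1 in moribund C57BL/6 mice, 1316.0 ± 116.7 in C57BL/6 at 3 weeks and 1231.6 on the C57BL/6 array at 6 weeks (SD, n = 2, 2 and 1). The A/J and C3H/HeJ groups followed, between 1031.8 ± 88.1 in A/J at 3 weeks (n = 4) and 932.4 ± 48.2 in C3H/HeJ controls (n = 2), each within the larger SD of its neighbour. C57BL/6 controls were lowest, at 810.4 ± 58.8 (n = 2). In control lungs the difference of C57BL/6 minus A/J was −0.21 and that of C57BL/6 minus C3H/HeJ −0.20 (log2, adjusted p = 0.504 and 0.579).

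Ldha, the lactate-forming subunit of lactate dehydrogenase (chr7:46842274-46855627), measured 1333.2 and 1866.3 in moribund C57BL/6 mice with probe set 1419737_a_at, against 782.8 and 918.1 in controls. At 3 weeks in C57BL/6 it measured 1563 and 1289.7. Treated and control arrays did not overlap in either comparison. The change was 0.88 in moribund mice (SE 0.18, adjusted p = 0.00413) and 0.73 at 3 weeks (SE 0.18, adjusted p = 0.0154). Without the male control array neither passed (0.76 and adjusted p = 0.0605 in moribund mice, 0.61 and 0.161 at 3 weeks). The moribund call was also lost without the female moribund array (0.62, adjusted p = 0.0865), and the call at 3 weeks without the male treated array (0.58, adjusted p = 0.211).

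In C3H/HeJ at 3 weeks Ldha measured 1326.5 and 1200.3 against 736.2 and 858.1 in controls, without overlap. The change of 0.66 (1.58-fold, SE 0.18) missed the threshold at an adjusted p of 0.0823, and passed without the male or the female moribund C57BL/6 array (adjusted p = 0.0448 and 0.0456), neither of which belongs to the groups compared. In A/J at 3 weeks the 4 arrays ran from 1035.1 to 1404.5 against 851.3 and 1047.8 in controls, and the female array at 125 mg/kg lay below the female control. The change was 0.37 (SE 0.16, adjusted p = 0.433). At 6 weeks the changes were 0.44 in A/J (1423.8 and 1169.3 against the same controls, SE 0.18) and 0.34 in C3H/HeJ (1056 and 964.0 against the same controls, SE 0.18), with adjusted p of 0.999 and 1. The single C57BL/6 array at 6 weeks stood at 1058.8, which is 0.32 above its controls, with no test.

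The mean change of Ldha over the 3 strains at 3 weeks was 0.59 (SE 0.10, 95% confidence interval 0.37 to 0.80, adjusted p = 0.000874), the largest of the 16 and at the 97.3rd percentile of all probe sets. It kept its side of the threshold in 32 of 33 alternative settings, the exception being the values as deposited (0.29, adjusted p = 0.143, median of all probe sets −0.27). The strains were not shown to differ. The C57BL/6 change exceeded that in A/J by 0.36 (95% confidence interval −0.15 to 0.87, adjusted p = 0.554) and that in C3H/HeJ by 0.08 (−0.47 to 0.62, adjusted p = 0.928).

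The group means of Ldha ran from 1599.8 ± 376.9 in moribund C57BL/6 mice through 1426.3 ± 193.2 in C57BL/6 at 3 weeks, 1296.6 ± 179.9 in A/J at 6 weeks, 1263.4 ± 89.3 in C3H/HeJ at 3 weeks and 1234.0 ± 153.4 in A/J at 3 weeks (SD, n = 2 each but 4 for the last). Below these lay 1058.8 on the C57BL/6 array at 6 weeks and 1010.0 ± 65.1 in C3H/HeJ at 6 weeks. The 3 control groups were lowest, with means of 949.6 ± 138.9 for A/J, 850.5 ± 95.7 for C57BL/6 and 797.2 ± 86.2 for C3H/HeJ (n = 2 each). Apart from the step to the single C57BL/6 array at 6 weeks, no neighbours in this order differed by more than the larger of their SDs.

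**Figure D2:**
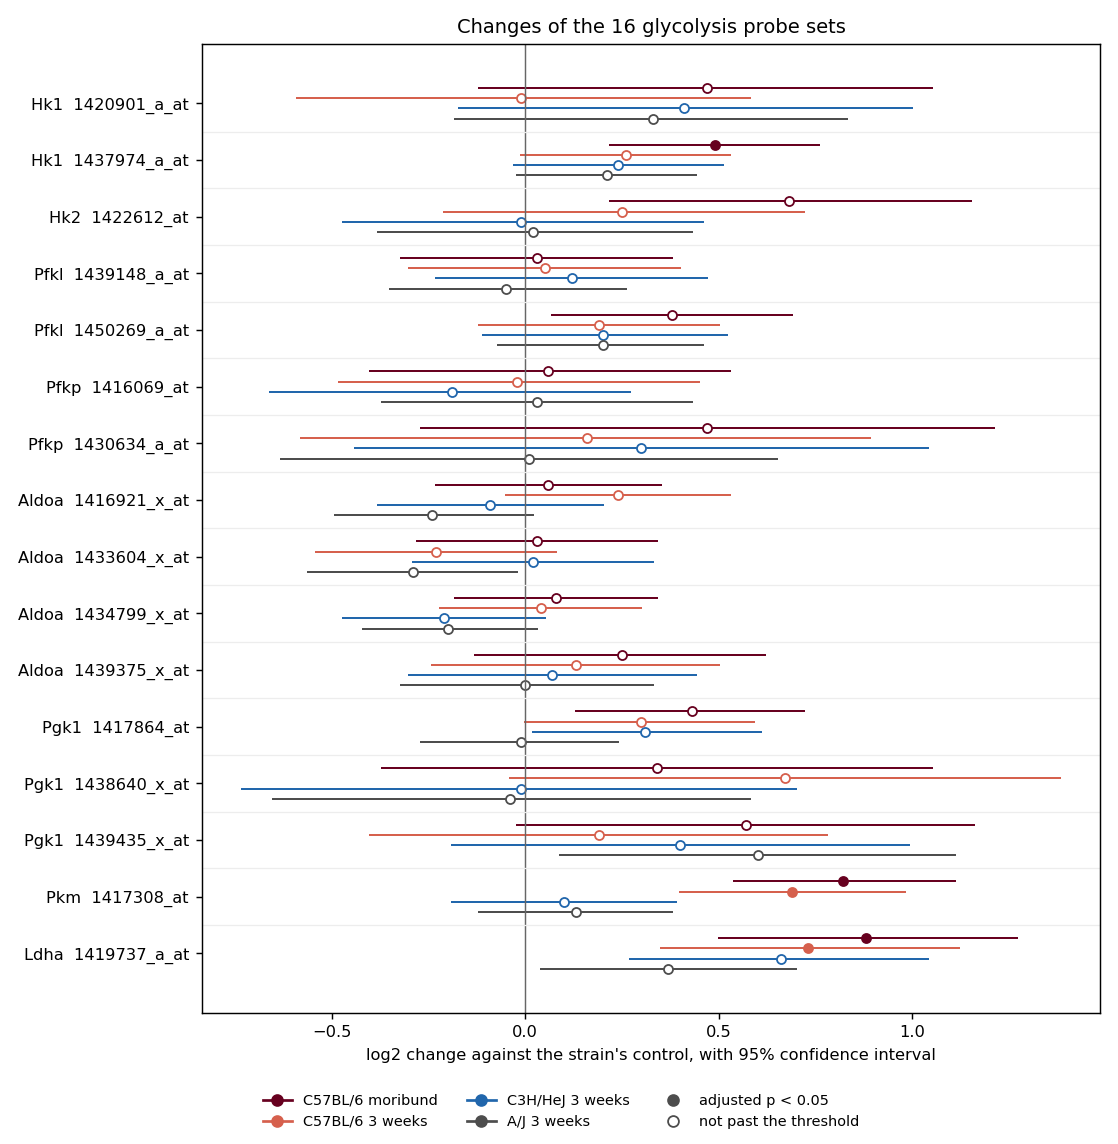
log2 change of each of the 16 probe sets against its strain's controls, with its 95% confidence interval, in moribund C57BL/6 mice and at 3 weeks in C57BL/6, C3H/HeJ and A/J. Filled points passed an adjusted p of 0.05, which are Hk1, Pkm and Ldha in moribund mice and Pkm and Ldha in C57BL/6 at 3 weeks.

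Taken as a list, the 16 probe sets had a median change of 0.40 in moribund C57BL/6 mice, where the median of all probe sets was 0.00. All 16 changes were above 0. With the values as deposited 10 were above 0, and 15 lay above the median of all probe sets, −0.28. With each array scaled to 1 median 15 were above 0. At 3 weeks the median was 0.19 in C57BL/6 with 13 of 16 above 0, 0.11 in C3H/HeJ with 11 and 0.02 in A/J with 10, against medians of all probe sets of −0.01, −0.02 and −0.01. With each array scaled to 1 median 15, 7 and 7 of 16 were above 0 in these strains, where the medians of all probe sets were 0.05, −0.1 and −0.04. The medians of the members there were −0.07 in C3H/HeJ and −0.02 in A/J. With the values as deposited 9, 4 and 2 were above 0, against medians of all probe sets of −0.18, −0.3 and −0.34. Under either scaling 13, 9 and 9 of 16 lay above the median of all probe sets. In the mean of the strains the median of the members was 0.18, with 12 above 0. With the values as deposited 2 were above 0, where the median of all probe sets was −0.27 and 12 lay above that median. Probe sets of 1 gene are not independent, and the moribund and 3 week groups of C57BL/6 share controls. Between moribund mice and C57BL/6 mice at 3 weeks no member passed, where 0.00663% of all probe sets did, and 0 of 16 had an unadjusted p under 0.05, against 9.5% of all probe sets. The largest of these differences with arrays apart were Hk1 1420901_a_at at 0.48 (95% confidence interval −0.11 to 1.06) and Hk2 at 0.43 (−0.04 to 0.90).

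In control lung no member passed between strains. None of 16 passed between C57BL/6 and A/J, between C57BL/6 and C3H/HeJ or between A/J and C3H/HeJ, where 3.17%, 2.5% and 1.01% of all probe sets did, and 1, 0 and 2 had an unadjusted p under 0.05 in limma, against 16%, 14% and 6.58% of all probe sets. Both of the last were Aldoa probe sets, higher in A/J than in C3H/HeJ controls by 0.34 (1416921_x_at, adjusted p = 0.566) and 0.40 (1433604_x_at, adjusted p = 0.451). The sex term of the fit over all 21 arrays, in which sex and dose differ together in treated mice, called 0 of 16, with 0.053% called over all probe sets. None of the 16 had an unadjusted p under 0.05, against 3% of all probe sets.

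**Figure D3:**
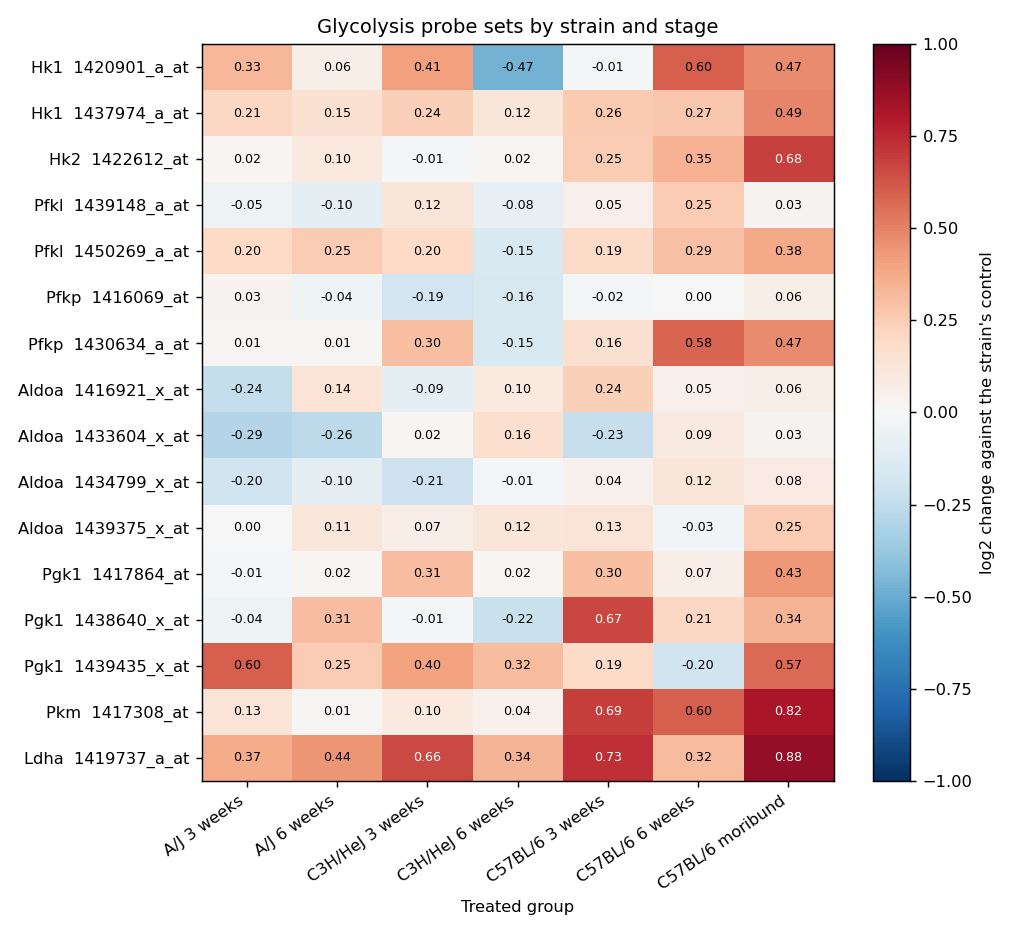
log2 change of the 16 probe sets (rows) in the 7 treated groups (columns) against the controls of the same strain, in red where higher and blue where lower. The column of the single C57BL/6 array at 6 weeks is a difference from 2 controls with no test, and the strongest red cells are Ldha (0.88) and Pkm (0.82) in moribund C57BL/6 mice.

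Of the other enzymes of the pathway, Pgam1, the phosphoglycerate mutase of most tissues, rose by 0.53 in the mean of the strains (SE 0.08, adjusted p = 0.000463), by 0.79 in C57BL/6 at 3 weeks (adjusted p = 0.00281) and by 1.08 in moribund C57BL/6 mice (adjusted p = 0.000195). Ldhb, the subunit of lactate dehydrogenase that prevails in heart and favours the reverse reaction, fell where Ldha rose. Its probe set measured 853.8 and 648.0 in moribund C57BL/6 mice and 741.1 and 841.9 at 3 weeks, against 1256.9 and 1269.1 in controls, and fell by 0.75 (adjusted p = 0.0014) and 0.67 (adjusted p = 0.00377). In C3H/HeJ at 3 weeks it fell by 0.60, to 756.6 and 698.5 against 1149.8 and 1078.8 (adjusted p = 0.0283). In A/J at 3 weeks Ldhb stood at 1320.3 to 1674.3 against 1471.8 and 1493.7 (0.05, adjusted p = 0.932), and the difference between the C57BL/6 and A/J changes, −0.72, had an adjusted p of 0.062. Eno3, the muscle enolase, fell by 0.42 in the mean of the strains (adjusted p = 0.019) and by 0.78 in moribund C57BL/6 mice (adjusted p = 0.0178). Bpgm, which makes 2,3-bisphosphoglycerate in red cells, fell by 1.16 in moribund mice (adjusted p = 0.0138). In the mean of the strains 1 of the 10 other glycolytic enzymes tested rose and 2 fell, with a median of 0.00, and in moribund mice 1 rose and 3 fell, with a median of −0.13.

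Few genes of transport and of side branches passed. Of 8 genes of glucose and lactate transport and of the PFKFB enzymes, which set the level of the activator of phosphofructokinase, 1 rose in the mean of the strains, Pfkfb2, by 0.55 (adjusted p = 0.0192), with a list median of 0.07. Pfkfb3 stood at −0.36 (adjusted p = 0.063) and the glucose transporter Slc2a3 at 0.26 (adjusted p = 0.12). The transporter Slc2a1 rose in moribund C57BL/6 mice, by 0.69 (adjusted p = 0.0438), and stood at 0.03 in the mean of the strains. In the pentose phosphate pathway, which makes NADPH and ribose, 2 of 7 rose in the mean of the strains, Pgd by 0.30 (adjusted p = 0.0357) and Taldo1 by 0.24 (adjusted p = 0.0496). None of 9 genes of pyruvate dehydrogenase, its kinases and the pyruvate carrier passed in that comparison (median −0.12), and none of 5 of gluconeogenesis (median 0.14). Pdk2, a kinase that switches pyruvate dehydrogenase off, fell by 0.75 in C57BL/6 at 3 weeks (adjusted p = 0.0254).

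Genes of the hypoxia-inducible factor pathway did not move one way. Of 16 tested in the mean of the strains 2 rose and 2 fell, with a median of −0.04. Hif1a, the oxygen-regulated subunit, rose by 0.36 (adjusted p = 0.0133) and Ddit4, an inhibitor of mTOR signalling, by 0.43 (adjusted p = 0.0431). Vegfa, the vascular growth factor, fell by 0.33 (adjusted p = 0.00476) and Mxi1, an antagonist of Myc, by 0.26 (adjusted p = 0.0389). Hif1a rose by 1.15 in C57BL/6 at 3 weeks (adjusted p = 0.000266) and by 0.80 in moribund mice (adjusted p = 0.00419), and its change at 3 weeks exceeded that in A/J by 1.31 (adjusted p = 0.00892). Epas1, the second such subunit, fell by 1.51 in C57BL/6 at 3 weeks (adjusted p = 0.0265), as did Egln1, an oxygen sensor that marks these subunits for destruction, by 0.60 (adjusted p = 0.0413).

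**Figure D4:**
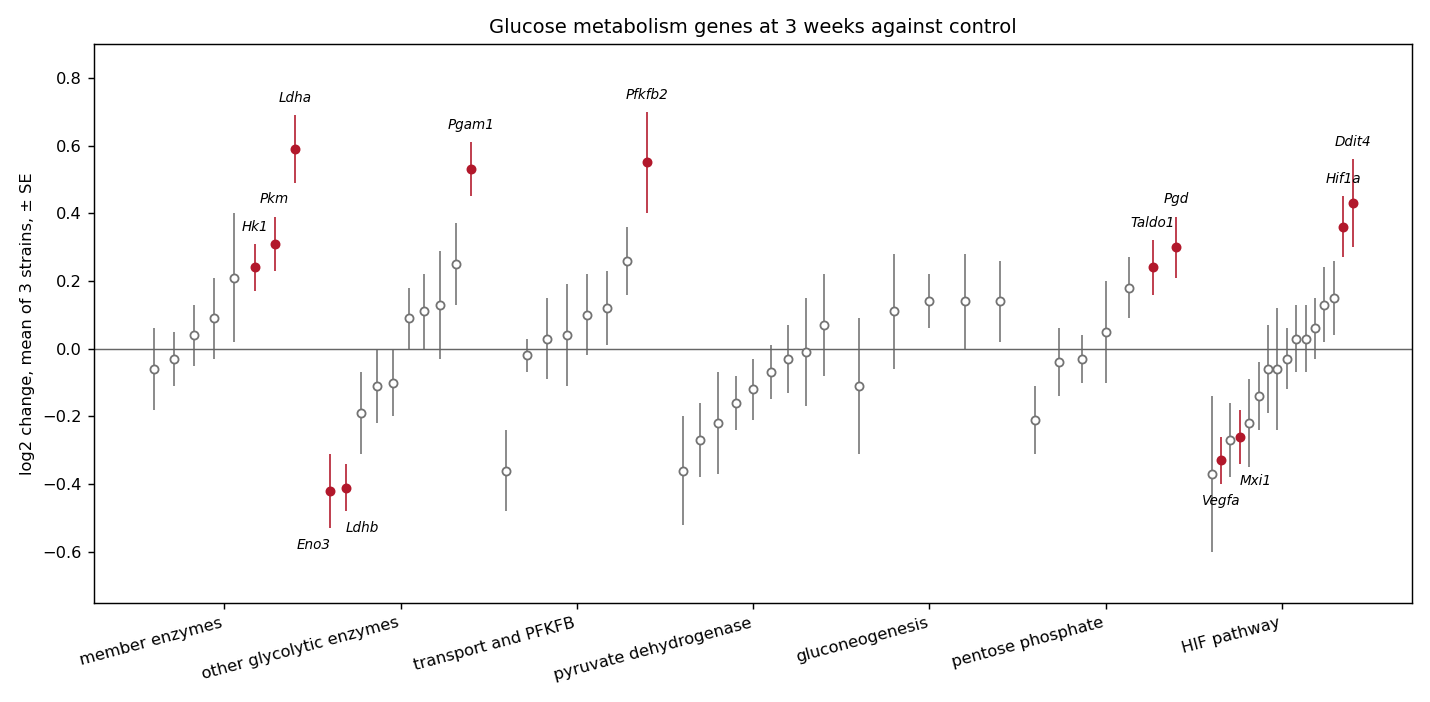
log2 change ± SE in the mean of the 3 strains at 3 weeks for the brightest probe set of each gene, for the members and for 6 lists of related genes, ordered by change within a list. Red points with names passed an adjusted p of 0.05, and they include 3 members, all higher, and 3 other glycolytic enzymes, of which 1 is higher and 2 are lower.

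Markers of several cell types changed as well, in C57BL/6 and also in A/J and C3H/HeJ at 3 weeks. Their part in these results was not tested. Of 11 macrophage markers 7 rose in moribund C57BL/6 mice and 7 in C57BL/6 at 3 weeks, and their summed intensity ran from 14638 to 15829 and from 13841 to 14752, against 10802 to 11096 in controls. In C3H/HeJ at 3 weeks, where Ldha stood at 0.66 and Pkm at 0.10, 6 macrophage markers rose and 1 fell, and the sum ran from 11960 to 13272 against 11672 to 12643. In A/J at 3 weeks 2 rose, with sums of 11439 to 12077 against 10187 to 11136. The sums add linear intensities, so the brightest markers weigh most. The median change of the macrophage markers tested was 1.33 in moribund C57BL/6 mice. At 3 weeks it was 1.01 in C57BL/6, 0.77 in C3H/HeJ and 0.32 in A/J. Of 12 macrophage markers 1 was below the dim filter, as was 1 of 8 for neutrophils.

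Neutrophil markers rose in 7 of 7 in the mean of the strains, and their sum was highest in A/J at 3 weeks, at 6300 to 11356 against 1709 to 1871. The sum in moribund C57BL/6 mice was 4289 to 5374 and at 3 weeks 4640 to 5012, against 1661 to 2168, and in C3H/HeJ at 3 weeks 4718 to 4789 against 1558 to 2756. Cell cycle genes rose in 7 of 9 in C57BL/6 at 3 weeks (sums of 2382 to 2685 against 1371 to 1384), in 6 of 9 in C3H/HeJ at 3 weeks (2659 to 2732 against 1435 to 1738), in 1 of 9 in A/J at 3 weeks (1636 to 2194 against 1448 to 1618) and in 3 of 9 in moribund mice (1785 to 1901).

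Other lists fell. Heart and skeletal muscle markers fell in 9 of 11 in the mean of the strains. Their sums were 1971 to 2228 in moribund C57BL/6 mice and 1958 to 2645 at 3 weeks against 5694 to 6151 in controls. In C3H/HeJ at 3 weeks the sums were 2530 to 3698 against 5298 to 5973, and in A/J at 3 weeks 3389 to 4227 against 6054 to 7374. Red cell markers, of which 3 were tested and 2 were below the dim filter, fell in 3 of 3 in moribund C57BL/6 mice. Their sums were 710 to 1038 against 2115 to 2263. At 3 weeks in C57BL/6 3 of 3 fell as well (802 to 1036). Endothelium markers fell in 4 of 5 in moribund mice (2748 to 3517 against 5467 to 5699) and 5 of 5 in C57BL/6 at 3 weeks (2731 to 3709), and epithelium markers in 3 and 4 of 8 (33067 to 37698 and 34049 to 34181, against 41555 to 41982). Lymphocyte markers fell in 3 of 5 in both C57BL/6 comparisons, with sums of 228 to 542 in moribund mice and 356 to 448 at 3 weeks against 847 to 862. Adipocyte markers fell in 1 and 2 of 3, with sums of 671 to 875 and 461 to 636 against 1543 to 2351. In A/J and C3H/HeJ at 3 weeks the median changes were 0.33 and 0.82 for red cell markers. They were −0.01 and −0.24 for endothelium and 0.06 and 0.02 for epithelium. For lymphocytes they were −0.76 and −1.27, and for adipocytes −1.02 and −0.29. None of the markers of these lists passed there but 1 of endothelium, which fell in C3H/HeJ.

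The members were not all correlated over the 10 groups. Over group means of the brightest probe sets, Pkm correlated with Hk1 at r = 0.856, with Hk2 at 0.843 and with Ldha at 0.745. Pfkl correlated with Pkm at −0.0222 and Pfkp with Ldha at −0.281. The F test did not call these probe sets of Pfkl and Pfkp (adjusted p = 0.837 and 0.996), so a low r does not show that their pattern differs. Among 9069 genes outside the members, the 3 most like Pkm by this r were Tmem43 (0.983), Gadd45g (0.981) and Nploc4 (0.98), and the 3 most like Ldha were Sat1 (0.963), Mrps7 (0.963) and Syngr1 (0.958). For Hk1 they were Rgs1 (0.96), Lmna (0.956) and Psmd14 (0.956), and for Hk2 Aoc1 (0.948), Tesk2 (0.933) and Fst (0.929). Pgk1 was most like Tpi1 (0.9), the triosephosphate isomerase of the same pathway, then Mgat4b (0.886) and Sars (0.861). Its brightest probe set, used here, was not called by the F test either (adjusted p = 0.719). Aldoa was most like Tpt1 (0.927), Tmub2 and Nup88 (0.923 each), Pfkl most like Csnk2a1 and G6pc3 (0.898 each) and Cxcl12 (0.857), and Pfkp most like Nde1 (0.866), Mylip (0.843) and Fgf4 (0.839). These are descriptions over 10 points that share arrays and scaling, chosen as the highest of many.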

How the data were processed

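Per the labels, each array received total RNA of whole right lung, prepared with Trizol and pooled from several mice. The deposited values were linear intensity, and how they were summarised and scaled was not given in the sources used here. The 64 control probe sets were left out of 22690. Of the other 22626, 20380 had 1 symbol in the array annotation, 691 several and 1555 none, and RefSeq matched 20351. Values were quantile normalized, turned into log2(value + 16) and filtered, which kept 15084 probe sets. In R 4.3.3 with limma 3.58.1, 1 fit with a term for each of 10 groups and for sex was made over 21 arrays (eBayes with trend, 10 residual degrees of freedom, 16.4 after shrinkage). Tests were two-sided, and p-values were adjusted over all probe sets of a comparison. The fit was also run on simulated data with normal noise on values already normalized, which does not test the scaling between arrays.

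The brightest probe set stands for a gene where 1 is used. All members are described. From each related list up to 6 genes with the smallest p in the mean of the strains were selected by rule. The text names mainly those of them that passed. Slc2a1, Bpgm, Epas1 and Egln1 were chosen after their values were seen. The members and the lists were chosen with earlier results of these data known. Alternatives were both other scalings, offsets of 1 and 64, the dim filter, the sex term, 1 probe set per gene, array weights, a threshold of 0.10, the A/J doses, the Gapdh ratio, both males of highest Xist, and leaving out each array in turn. The single C57BL/6 array at 6 weeks was never left out.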

Additional observations from a re-analysis of the deposited data

Results flagged for a closer look

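The Aldoa probe set 1434799_x_at in A/J at 3 weeks had 1 array far from the other 3. The female pool at 100 mg/kg measured 987.8, against 1193.6, 1200.8 and 1230.7 on the others of the group, and its gap to the nearest was 0.861 of the group's whole range on the log2 scale. This was 1 of 16 probe sets examined, all on the same 4 arrays and so not independent, and chance flags about 1 in 20. The A/J controls measured 1406.1 and 1236.4 with this probe set.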

How the results depend on the processing

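With the values as deposited, members called were 1 in the mean of the strains (an Aldoa probe set, 1433604_x_at, at −0.47, adjusted p = 0.0411), 0 in C57BL/6 at 3 weeks, 0 in moribund mice and 0 in the F test. There the mean change of Hk1 was −0.06 and that of Pkm 0.00, and the median of all probe sets was −0.27 in the mean, −0.18 in C57BL/6 at 3 weeks and −0.28 in moribund mice. With each array scaled to 1 median 1 passed in the mean (Ldha) and 1 in the F test. Leaving out both males with the highest Xist gave 1 in the mean. In moribund mice 5 passed with the dimmest 50 percent left out, 5 without a term for sex and 5 at a threshold of 0.10, which gave 1 in C3H/HeJ at 3 weeks (Ldha) and 5 in the F test. Array weights gave 1 between C57BL/6 and A/J controls. Leaving out 1 array gave 1 to 4 in the mean, 0 to 2 in C57BL/6 at 3 weeks, 0 to 1 in C3H/HeJ at 3 weeks, 1 to 5 in moribund mice and 2 to 5 in the F test. The causes were not tested. The other comparisons gave 0 under every setting run. No paired analysis was possible because the labels give no replicate numbers, and every array holds other animals.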
